A study of Mus musculus with 8 samples.

Results

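Among the targets of the tumour suppressor p53 are genes that feed back on p53 itself, slow the cell cycle or tune kinase signalling, without killing the cell or repairing its DNA. The 10 such genes described here were listed by symbol, each on a primary chromosome: Ccng1, Trp53inp1, Ppm1d, Phlda3, Btg2, Plk2, Plk3, Gtse1, Psrc1 and Rprm, which are 10 of the 52778 rows of the expression table. Ventricular tissue of mouse embryos at embryonic day 11.5 was sequenced in 4 conditional knockout libraries (cKO) and 4 control libraries. The cKO embryos were Rps19bp1 fl/fl and carried Xmlc2-Cre, a Cre recombinase under a myosin light chain promoter that acts in cardiomyocytes, so other cells of the ventricle keep the gene. The exact genotype of the controls is not given, the genotype label reads C57BL/6 WT for all 8 libraries, and nothing says whether a library is 1 embryo or a pool or whether embryos share a litter. The p-values therefore measure the spread between libraries. In bulk tissue, fewer cells of a type and less RNA per cell cannot be told apart.

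Rps19bp1 encodes a protein of the nucleolus, a partner of the ribosomal protein Rps19 and an activator of Sirt1, which deacetylates p53. When p53 is stabilised it binds DNA and switches on its targets, including Cdkn1a, an inhibitor of cyclin-dependent kinases, and Mdm2, the ubiquitin ligase that returns p53 to a low level. Several of the genes below work at that return step or beside it, and cell division in the embryonic ventricle is rapid, so genes that act in mitosis are abundant in this tissue.

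All levels are in TPM, the share of a library's transcripts that a gene takes after division by transcript length, so levels of different genes can be compared. A total of 15541 rows with a mean of at least 1 TPM were tested, and the table does not give the depth of each library. The targeted gene stood at 11.8 to 19.2 TPM in cKO and 34.7 to 44.2 TPM in control. The 20 cardiomyocyte markers summed to 59938 to 63059 TPM in cKO and 60306 to 65464 TPM in control. The labels contradict each other: the extraction text speaks of cortical neurons and of rRNA depletion, the series text of ventricles and of a stranded mRNA kit, so how the RNA behind these values was selected is uncertain. The 14 neuronal genes summed to 155 to 178 TPM. Of these, 4 reached a mean of 1 TPM and were tested, and Rbfox3, Neurod6 and Grin1 were under 0.1 TPM on average. Over all tested rows, 6.4% passed the threshold of limma's test (Benjamini-Hochberg adjusted p under 0.05), 336 rows or 2.16% higher and 658 or 4.23% lower in cKO. That split moved to 383 higher and 380 lower after quantile normalization, 383 and 419 after median-ratio scaling, and 388 and 396 after rescaling without mitochondrial and globin rows. These counts also moved with single libraries: leaving out any library but cKO replicate 4 moved at least 1 of them by over 1.5 times, to 153 to 229 higher and 228 to 484 lower, and with the replicate block they were 179 and 241. The median change of all tested rows was -0.02 on the log2 scale.

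Of the 10 genes, 5 rose in cKO: Trp53inp1, Ccng1, Phlda3, Psrc1 and Btg2. None of the other 4 tested genes, Plk2, Gtse1, Plk3 and Ppm1d, passed the threshold, and Rprm was below the minimum level for testing, so 9 of 10 were tested. The groups did not overlap in the 5 risers, whereas over all tested rows the groups did not overlap in 15.6% (5.33% higher and 10.3% lower in cKO). The median log2 change of the 9 tested genes was 0.71, the value of Btg2, the smallest of the 5 rises. The 4 genes that did not pass lay at 0.19 or below, so this median stands at the edge of a split. With no filter, which adds Rprm, that median was 0.57. The same 5 genes were called under all 18 alternatives, and Rprm joined them when no filter was set.

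Markers of other cells moved with the groups as well. The 11 epicardial markers summed to 485 to 596 TPM in cKO and 413 to 477 TPM in control, with 5 of 11 called higher, and the 12 mesenchymal markers to 1392 to 1528 and 1055 to 1252 TPM, with 4 called higher and 1 lower. Over all tested rows 2.16% were called higher and 4.23% lower. The groups overlapped for the sums of 20 cardiomyocyte (1 called lower), 14 endocardial and endothelial, 14 erythroid and 12 macrophage markers, the last 3 with 0 calls (6, 1 and 1 of their genes had an unadjusted limma p under 0.05). Mitochondrial rows took 13.2% to 16.2% of TPM in cKO and 11.4% to 12.2% in control. The part of these differences in the changes of the 5 risers was not tested.

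**Figure D1:**
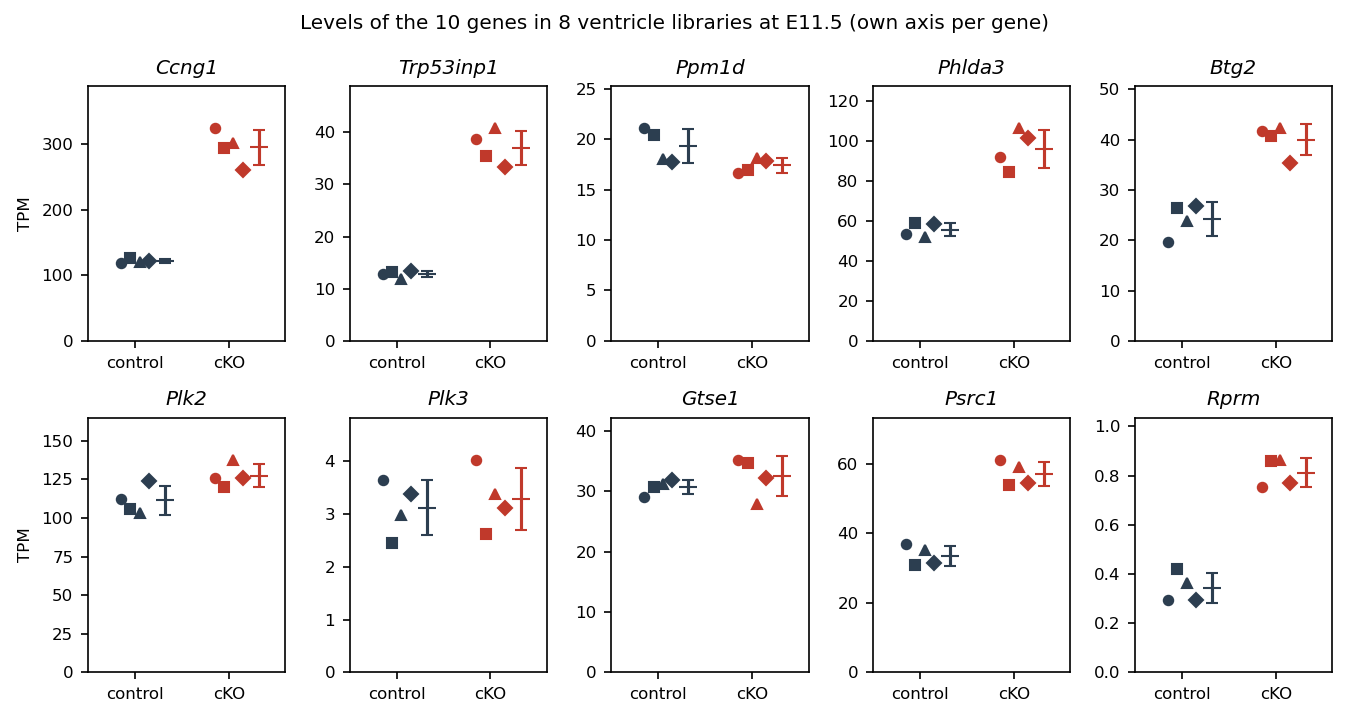
TPM of each gene in 4 control (dark) and 4 cKO (red) libraries, with a separate axis from 0 for each gene; symbols mark replicates 1 to 4 (circle, square, triangle, diamond), bars the mean and SD. The groups stand apart for Ccng1, Trp53inp1, Phlda3, Btg2, Psrc1 and Rprm and overlap for Ppm1d, Plk2, Plk3 and Gtse1.

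Promoter windows of RefSeq (GRCm38.p6, 250 bases before to 50 after an annotated start) were available for 9 of the 10 genes, all but Trp53inp1. They were searched on both strands for the p53 decamer consensus, for the cyclic AMP response element TGACGTCA, for CCAAT and for the cell cycle element TTTGAA. No 2 matches of different motifs shared a base. The p53 decamer was found in 3 of the 9 genes (8.36% of 32851 windows of all genes hold it), the cyclic AMP element in 3 (1.79%), CCAAT in 5 (37.4%) and TTTGAA in 0 (17.9%). The shares count windows and not genes, and Gtse1 and Psrc1 had 2 windows each, so the 2 measures cannot be set against each other directly. The p53 decamers upstream of the listed gene span are shown first, since 1 belongs to a riser and 1 to a gene that did not pass. The first lies at -185 to -176 from the annotated start of Ccng1 (shown window chr11:40755447-40755486, minus strand), the second at -132 to -123 from that of Ppm1d (chr11:85311107-85311146, plus strand). Capitals mark the match and the sequences read 5′ to 3′. Offsets count from the annotated start of a window, which need not be the start of the listed gene span.

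Ccng1: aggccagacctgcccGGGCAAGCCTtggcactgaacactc

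Ppm1d: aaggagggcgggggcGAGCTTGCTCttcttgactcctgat

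The remaining decamer match lay after the start of a Gtse1 window. The cyclic AMP response element, which immediate early genes often carry, occurred in Btg2 at -166 to -159 (chr1:134079299-134079336, minus strand), in Plk2 at -62 to -55 (chr13:110394967-110395004, plus strand) and in Ppm1d at -85 to -78 (chr11:85311154-85311191, plus strand).

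Btg2: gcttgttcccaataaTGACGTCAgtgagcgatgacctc

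Plk2: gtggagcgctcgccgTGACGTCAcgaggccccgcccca

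Ppm1d: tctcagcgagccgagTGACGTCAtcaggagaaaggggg

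CCAAT boxes, common in promoters of genes that peak before mitosis, occurred in Gtse1 at -99 to -95 (chr15:85859593-85859627, plus strand) and in Psrc1 (chr3:108383748-108383782, plus strand). The Psrc1 box lies at -41 to -37 from 1 annotated start and at -75 to -71 from another. Other matches lay in these 2 genes and in Btg2, Ccng1 and Ppm1d.

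Gtse1: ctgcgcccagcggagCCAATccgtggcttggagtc

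Psrc1: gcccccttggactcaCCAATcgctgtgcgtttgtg

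The matches describe sequence only, and binding to them was not measured. Ccng1 with a decamer rose and Ppm1d with one did not pass, and of the 3 genes with the cyclic AMP element Btg2 rose while Plk2 and Ppm1d did not pass.

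The genes that act on p53 itself were examined first. Trp53inp1 (chr4:11156441-11174379, plus strand) encodes a stress-induced protein that brings the kinases Hipk2 and protein kinase C delta to p53 and also takes part in autophagy. Its level was 38.6, 35.4, 40.7 and 33.4 TPM in cKO replicates 1 to 4 and 12.8, 13.2, 11.9 and 13.3 TPM in control replicates 1 to 4. Every cKO library held more than any control library, and the lowest cKO value was 33.4 TPM against a highest control value of 13.3 TPM. The mean rose 2.89 times, being 12.8 ± 0.634 TPM in control and 37.02 ± 3.27 TPM in cKO (SD, n = 4), and limma gave a log2 change of 1.46 with an SE of 0.0696 and an adjusted p of 6.53e-06, the highest of the 9 tested genes and rank 11 of 15541 rows. Its paralog Trp53inp2, a nuclear factor that moves to autophagosomes, stood at 157 ± 3.73 TPM in cKO and 149 ± 8.54 TPM in control (SD, n = 4), with a log2 change of 0.07 (adjusted p = 0.434 by limma).

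Ccng1 (chr11:40748552-40755309, minus strand) encodes cyclin G1, a cyclin that recruits protein phosphatase 2A to Mdm2 and thereby restrains p53. On average it was the most abundant of the 10 genes. It stood at 323, 294, 301 and 260.05 TPM in cKO and at 119, 126, 119.8 and 121 TPM in control. The control libraries lay within a narrow band while the cKO libraries were all above it, cKO replicate 4 being the lowest of them. The mean rose 2.43 times, being 121 ± 3.22 TPM in control and 295 ± 26.2 TPM in cKO (SD, n = 4), and limma gave a log2 change of 1.27 with an SE of 0.0635 and an adjusted p of 7.29e-06. Ccng2, the paralog encoding cyclin G2, had a log2 change of 0.09 (adjusted p = 0.536 by limma), with 29.3 ± 0.973 TPM in cKO and 27.6 ± 3.64 TPM in control (SD, n = 4).

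Ppm1d (chr11:85311254-85347071, plus strand) encodes Wip1, the phosphatase that removes activating phosphates from p53, Atm, Chek2 and the stress kinase p38. In contrast to the 2 genes above, it stood at 16.7, 16.9, 18.2 and 17.9 TPM in cKO and at 21.1, 20.4, 18.05 and 17.8 TPM in control. The groups overlapped, control replicates 1 and 2 lying above all cKO libraries and control replicates 3 and 4 among them. Its log2 change was -0.14 with a 95% interval of -0.29 to 0.01 (adjusted p = 0.243 by limma). Its change was negative under every alternative, from -0.18 to -0.10.

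The other genes around this loop were taken from a list of 30 partners and substrates, all of which were tested, and 1 rose and 1 fell. Over all tested rows 2.16% were called higher and 4.23% lower, so 1 call each way in 30 is near these shares. Mdm2 rose by 0.24 on the log2 scale (adjusted p = 0.0154 by limma), its level being 39.9 ± 1.2 TPM in control and 47.1 ± 0.966 TPM in cKO (SD, n = 4). Its call was lost with a block for the replicate number (adjusted p = 0.059 by limma) and without control replicate 3 (adjusted p = 0.0511 by limma). Ppp2r5a, a regulatory subunit of protein phosphatase 2A, fell by 0.36 on the log2 scale (adjusted p = 0.0176 by limma) and kept its call under 13 of 18 alternatives. The call was lost without cKO replicate 3, without control replicate 1, without control replicate 3, with no filter and with the replicate block. Chek1, a checkpoint kinase, had a log2 change of -0.30 (adjusted p = 0.0501 by limma). Trp53 itself stood at 93 to 99.4 TPM in cKO and 79.2 to 96.8 TPM in control, with a log2 change of 0.16 (adjusted p = 0.145 by limma). The median log2 change of the 30 genes was -0.05.

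Phlda3 and Btg2 act outside the loop, on growth signalling and on messenger RNA. Phlda3 (chr1:135766085-135769134, plus strand) encodes a small protein that consists of little more than a pleckstrin homology domain and competes with the kinase Akt for membrane lipids. It stood at 91.9, 84.8, 106 and 102 TPM in cKO and at 53.7, 58.95, 52.1 and 58.3 TPM in control. No value of one group lay within the range of the other. The mean rose 1.72 times, being 55.8 ± 3.38 TPM in control and 96.2 ± 9.67 TPM in cKO (SD, n = 4), and limma gave a log2 change of 0.77 with an SE of 0.0746 and an adjusted p of 0.000723. Its paralog Phlda1 stood at 26.4 ± 5.89 TPM in cKO and 24.8 ± 2.68 TPM in control (SD, n = 4), with a log2 change of 0.06 (adjusted p = 0.827 by limma), and Phlda2, an imprinted gene, was under the minimum for testing at 1.01 and 0.972 TPM.

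Btg2 (chr1:134074865-134079155, minus strand) encodes an antiproliferative protein that binds the Cnot7 and Cnot8 deadenylases, which shorten messenger RNA tails. Its promoter window holds the cyclic AMP response element printed above. It stood at 41.6, 40.8, 42.2 and 35.4 TPM in cKO and at 19.6, 26.5, 23.9 and 26.9 TPM in control. The groups were separate, with control replicate 1 the lowest library and cKO replicate 4 the lowest of its group. The mean rose 1.65 times, being 24.2 ± 3.36 TPM in control and 40.03 ± 3.12 TPM in cKO (SD, n = 4), and limma gave a log2 change of 0.71 with an SE of 0.0981 and an adjusted p of 0.00485. Among the other antiproliferative genes of the family, none passed the threshold: Tob1 had a log2 change of 0.32 (adjusted p = 0.0974 by limma), Tob2 of 0.04, Btg1 of -0.02 and Btg3 of -0.08, and Btg4 was at or near 0 in all 8 libraries.

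Plk2 and Plk3 encode polo-like kinases that respond to stress and growth signals. Plk2 (chr13:110395044-110400844, plus strand), which also acts in centriole duplication, stood at 126, 119.7, 137 and 125.6 TPM in cKO and at 112, 106, 103 and 124 TPM in control. The groups overlapped through control replicate 4, which lay above cKO replicate 2. Its log2 change was 0.19 with a 95% interval of 0.05 to 0.34 and an unadjusted limma p of 0.0153, and it did not pass after adjustment (adjusted p = 0.115 by limma, with a range of 0.0561 to 0.251 over the alternatives).

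Plk3 (chr4:117128655-117133963, minus strand) was low, at 4.02, 2.61, 3.37 and 3.11 TPM in cKO and at 3.64, 2.45, 2.98 and 3.38 TPM in control. The range of the controls lay within 2.45 to 3.64 TPM and that of cKO within 2.61 to 4.02 TPM, so the groups overlapped. Its log2 change was 0.06, with a 95% interval of -0.23 to 0.34 (adjusted p = 0.833 by limma), and turned to -0.02 without cKO replicate 1 and to -0.03 without control replicate 2. Plk3 is the 1 gene of the 10 whose span overlaps another row, Tctex1d4 on the opposite strand, so its value is uncertain unless the counting used strand, and a stranded kit is named in only one of the 2 label texts. The mitotic kinase Plk1 fell by 0.35 on the log2 scale (adjusted p = 0.0419 by limma), a call that was kept under 6 of 18 alternatives, and its level was 80.1 ± 6.39 TPM in control and 63.01 ± 7.25 TPM in cKO (SD, n = 4). Plk4, the kinase that starts centriole duplication, had a log2 change of -0.29 (adjusted p = 0.0534 by limma).

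**Figure D2:**
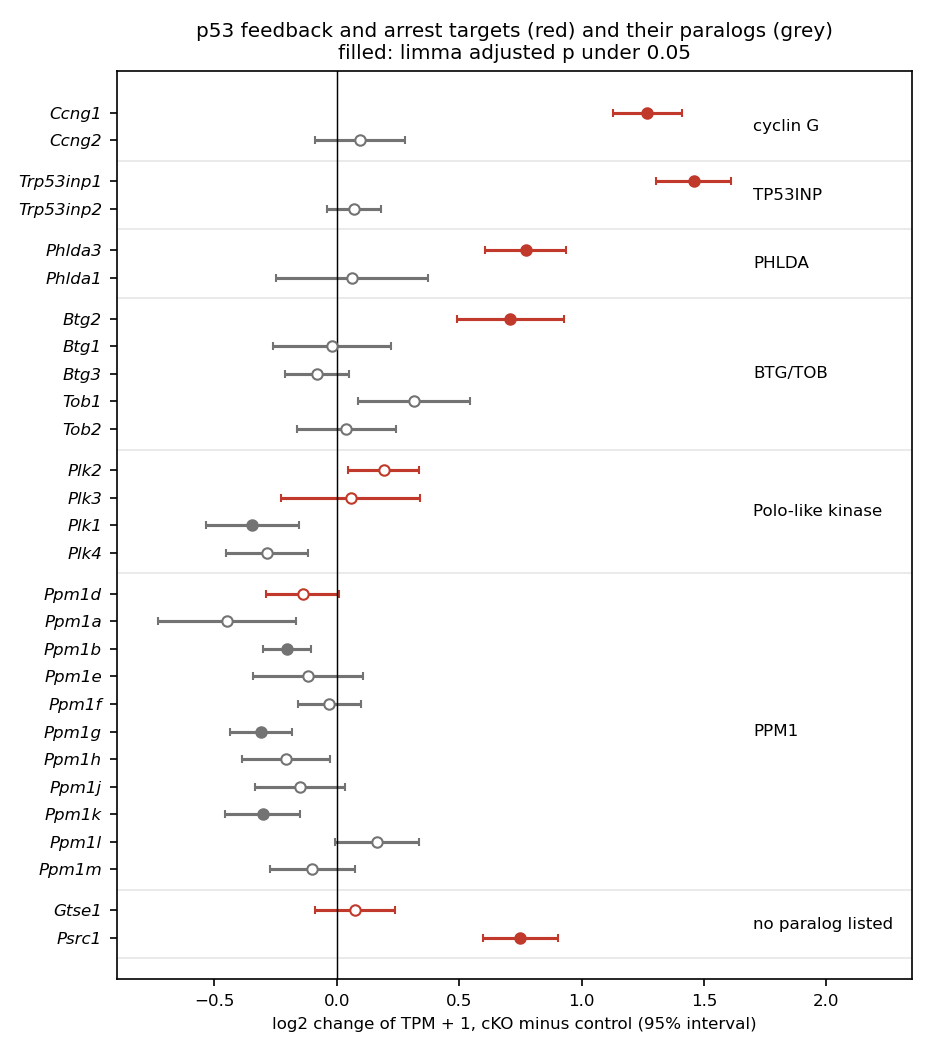
Log2 change of TPM + 1 (cKO minus control) with its 95% interval for the tested p53 feedback and arrest targets (red) and their tested paralogs (grey), by family; filled points had a limma adjusted p under 0.05. Trp53inp1, Ccng1, Phlda3 and Btg2 lie at 1.46, 1.27, 0.77 and 0.71, and the paralogs lie between -0.45 and 0.32.

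No paralog of these genes was called higher. Of 24 paralogs, 19 were tested, 0 were called higher and 4 lower by limma (8 had an unadjusted p under 0.05), with a median log2 change of -0.10. The calls were Ppm1b (-0.20), Ppm1g (-0.31), Ppm1k (-0.30) and Plk1, and 3 of them belong to the phosphatase family of Ppm1d, in which 9 of 10 tested paralogs had a negative change. Over all 15541 tested rows, 8678 had a negative change and 4.23% were called lower. The number of lower paralogs depended on the processing. Of 18 alternatives, Ppm1g kept its call under 16, Ppm1k under 9 and Ppm1b under 8. It was 5 with a minimum mean of 5 TPM, 2 after quantile normalization, 1 after median-ratio scaling, 1 after rescaling without mitochondrial and globin rows and 0 with the replicate block, and it ranged from 1 to 4 when single libraries were left out. The lowest of these counts, 1, was found without control replicate 1, and 2 were found without cKO replicates 1 and 3 and control replicates 2 and 3. The median of the paralogs stayed negative under every alternative, from -0.14 to -0.03.

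The difference between a gene and its family was then described within libraries, as the log2 ratio to its most abundant tested paralog. The 9 ratios were chosen after the levels were seen, so they are given with no test. The ratio of Trp53inp1 to Trp53inp2 was -2.06 ± 0.134 in cKO and -3.44 ± 0.11 in control (SD, n = 4), a difference of 1.39. The corresponding difference was 1.17 for Ccng1 to Ccng2, 0.79 for Btg2 to Btg3, 0.71 for Phlda3 to Phlda1, 0.54 for Plk2 to Plk1 and 0.17 for Ppm1d to Ppm1g. In each of these 6 ratios the groups were separate, and other pairs of genes were not examined for separation. Trp53inp1, Ccng1, Btg2 and Phlda3 were already separate between the groups by their own levels. The ratio of Plk3 to Plk1 was 0.40 higher in cKO but the groups overlapped. A ratio shows unequal change of the 2 genes. For Plk2 and Ppm1d the paralog in the ratio was itself lower, and the groups of the Ppm1d ratio overlapped after quantile normalization.

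Gtse1 and Psrc1 are genes of dividing cells as well as p53 targets. Gtse1 (chr15:85859691-85876573, plus strand) encodes a microtubule protein of the G2 phase that also carries p53 out of the nucleus. It stood at 35.2, 34.6, 27.9 and 32.2 TPM in cKO and at 29.1, 30.7, 31.2 and 31.8 TPM in control. The cKO libraries spread to both sides of the control libraries, with cKO replicate 3 the lowest of all 8. Its log2 change was 0.07 with a 95% interval of -0.09 to 0.24 (adjusted p = 0.59 by limma).

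Psrc1 (chr3:108383804-108388231, plus strand) encodes a spindle protein that regulates microtubule ends. It stood at 61.1, 53.8, 58.9 and 54.4 TPM in cKO and at 36.8, 30.9, 35.2 and 31.3 TPM in control. All cKO libraries lay above all control libraries. The mean rose 1.7 times, being 33.6 ± 2.9 TPM in control and 57.1 ± 3.51 TPM in cKO (SD, n = 4), and limma gave a log2 change of 0.75 with an SE of 0.0691 and an adjusted p of 0.000505.

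Many other genes of G2 and mitosis fell. Of 53 tested genes of a G2/M list that leaves out Gtse1 and Psrc1, all were lower in cKO and 37 were called lower, with a median log2 change of -0.32 and a range of -0.47 to -0.05. Mki67, Ccnb2 and Cdca3 had the smallest p (log2 changes of -0.40, -0.43 and -0.38). Leaving out control replicate 1 gave 22 calls, leaving out control replicate 3 gave 23, and setting no filter on low values gave 17. Of 43 tested G1/S genes, 27 were called lower, with a median of -0.33. The share called lower over all tested rows was 4.23%. Against the mean of the G2/M list in the same library, Psrc1 was 1.06 higher in cKO on the log2 scale and Gtse1 0.38 higher, and in both cases the groups were separate. The Gtse1 ratio mostly restates the fall of the list, as its own log2 change was 0.07 and did not pass. A gene with no change of its own would also be higher against this list, in which all 53 genes were lower.

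**Figure D3:**
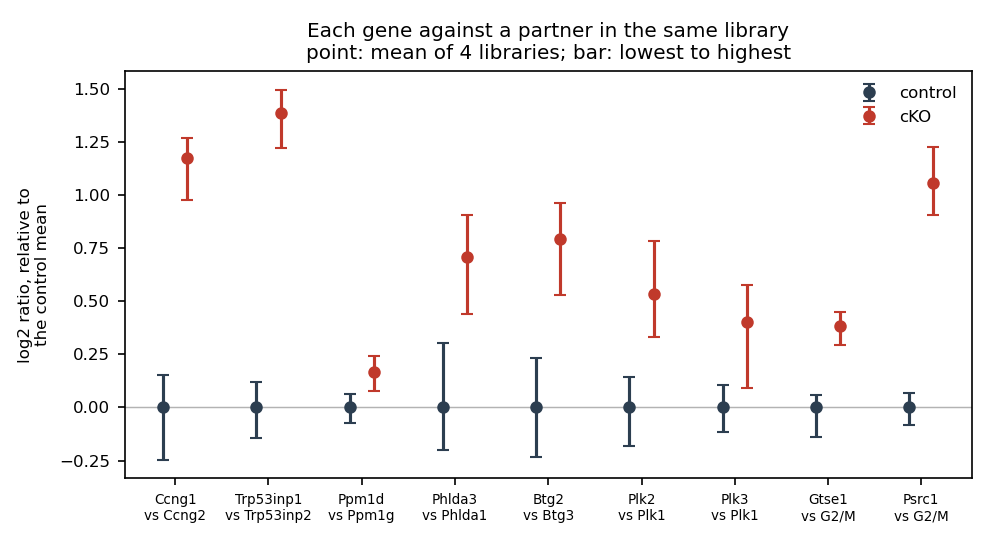
Log2 ratio of each gene to its most abundant tested paralog, or to the mean of the G2/M list, within the same library, relative to the control mean; points are means of 4 libraries and bars run from the lowest to the highest library (control dark, cKO red). The groups are separate in 8 of the 9 ratios and overlap for Plk3 against Plk1. The pairs were chosen after the levels were seen, and Plk1, Ppm1g and the G2/M genes were themselves lower in cKO. Other pairs of genes were not examined for separation.

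Rprm (chr2:54084093-54085552, minus strand) encodes Reprimo, a glycosylated cytoplasmic protein linked to arrest in G2. It was the lowest of the 10 genes, at 0.754, 0.86, 0.863 and 0.77 TPM in cKO and at 0.294, 0.42, 0.364 and 0.293 TPM in control. The groups did not overlap, but all 8 libraries lay under 1 TPM, so the gene did not enter the main test. The mean was 0.812 ± 0.0578 TPM in cKO and 0.342 ± 0.0614 TPM in control (SD, n = 4, exact permutation p = 0.0286). That p is unadjusted and is the lowest that 4 against 4 libraries can give. On the log2(TPM + 1) scale the difference was 0.43, and it became 1.05 with a pseudocount of 0.1 and 0.12 with a pseudocount of 5. With no filter, Rprm passed limma's test (adjusted p = 0.0161). Its paralog Rprml was also under 1 TPM, at 0.438 ± 0.362 in cKO and 0.295 ± 0.181 in control (SD, n = 4).

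Levels also differed widely among the 10 genes. In control, Ccng1 (121 TPM) and Plk2 (111 TPM) came first and their library ranges overlapped, followed by Phlda3 (55.8), then Psrc1 (33.6) and Gtse1 (30.7), whose ranges overlapped, then Btg2 (24.2) and Ppm1d (19.3), whose ranges overlapped, and below them Trp53inp1 (12.8), Plk3 (3.11) and Rprm (0.342). In cKO the order began with Ccng1 (295), Plk2 (127), Phlda3 (96.2) and Psrc1 (57.1), with no overlap between neighbours. Btg2 (40.03) then overlapped Trp53inp1 (37.02), which overlapped Gtse1 (32.5). Trp53inp1 thus moved from below Ppm1d (17.4 TPM in cKO) to above it, with no overlap between these 2 genes in either group. The spread between libraries, as SD over mean, was 2.65% for Ccng1 in control and 8.91% in cKO, and was highest for Rprm in control (17.9%) and Plk3 in cKO (17.9%).

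The remaining p53 pathway was read from a list of 40 other targets, of which 39 were found and 38 tested. Of these 19 were called higher and 0 lower, with a median log2 change of 0.33 against -0.02 for all tested rows. Over all tested rows 2.16% were called higher and 4.23% lower. Mdm2 belongs both to this list and to the partners and substrates above. Eda2r, a receptor of the tumour necrosis factor family, had a log2 change of 2.38, Cdkn1a of 2.50 and Sesn2, a restraint on the growth kinase mTORC1, of 1.22. Cdkn1a stood at 189.8, 171, 198 and 137 TPM in cKO and 29.1, 24.9, 33.1 and 32.4 TPM in control, a rise of 5.83 times in the mean. The changes of Trp53inp1 and Ccng1 lay below those of Cdkn1a and Eda2r and above that of Sesn2, and the 4 genes that did not pass lay below that median. Over the alternatives between 16 and 20 of the other targets were called higher.

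Because Btg2, Plk2 and Plk3 are also induced within minutes by growth factors and by handling of tissue, a list of 37 immediate early genes without them was read beside. Of 31 tested, 0 were called higher and 1 lower, with a median log2 change of -0.10. The lower gene was Dusp2, a phosphatase of mitogen-activated kinases (log2 change -0.26, adjusted p = 0.0333 by limma), and it kept its call under 6 of 18 alternatives. Dusp6 (0.18) and Ier5 (-0.29) had the next smallest p and did not pass. By limma, 6 of the 31 had an unadjusted p under 0.05. Whether growth factors or handling of tissue changed Btg2, Plk2 or Plk3 was not tested.

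**Figure D4:**
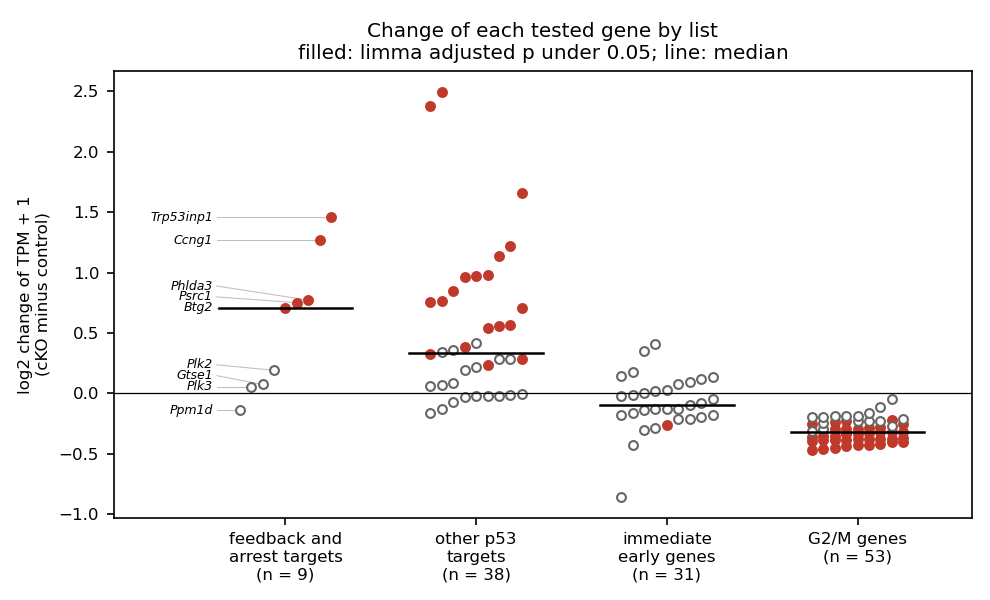
Log2 change of TPM + 1 (cKO minus control) of each tested gene in 4 lists, with filled points for a limma adjusted p under 0.05 and a line at the median. The medians are 0.71 for the p53 feedback and arrest targets, 0.33 for the other p53 targets, -0.10 for the immediate early genes and -0.32 for the G2/M genes. The first list is split, with 5 genes at 0.71 or above and 4 at 0.19 or below.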

How the data were processed

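RNA sequencing of 8 libraries of embryonic mouse ventricle was analysed from 1 deposited table, in which the authors give TPM per row (reads divided by transcript length and scaled to the same total in each library). Per the submitters' processing notes, the tools were FastQC, Trim Galore 0.6.7, HISAT2 2.2.1, StringTie 2.2.1, featureCounts and DESeq2, with build GRCm38. Which of them made the TPM, the annotation and the use of strand are not given in the sources used here. TPM keeps no depth, so no counting error could be given.

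Groups and replicate numbers came from the sample titles. Of 52778 rows, the 15541 whose mean over the 8 libraries reached 1 TPM were tested. Values were taken as log2(TPM + 1) and fitted in R 4.3.3 with limma 3.58.1 (lmFit and eBayes with a trend, group as the only term, two-sided), with Benjamini-Hochberg adjustment over all tested rows and a threshold of 0.05. Fold changes on this scale understate the change of low genes. Rprm, below this minimum, was compared by an exact two-sided permutation test over 70 assignments (scipy 1.17.1). Ratios of 2 genes within a library are given with no test. The fit was tested on simulated data for this comparison: of 200 changed rows among 15541, 94% were recovered at a log2 change of 1.5 and 82% at 0.75, 4.86% of calls were false, and 0 calls were made without a change. The simulated rows varied independently of one another, so shifts shared by many rows of a library were not simulated.

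The 10 genes and all lists were chosen with earlier results of these data known. The ratios, and their alternatives, were chosen after the values were seen. Named genes were the 10 genes, Rps19bp1, Trp53, Mdm2, Cdkn1a, the paralogs, up to 3 genes of each other list with the smallest p, and the 3 rows most like the risers. Lists comprised other p53 targets, paralogs, partners and substrates, G2/M, G1/S and immediate early genes, and markers of 7 cell types. The 18 alternatives were 2 other pseudocounts, 2 other filters, 3 scalings, array weights, the replicate number as a block, eBayes without a trend, and each of the 8 libraries left out.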

Additional observations from a re-analysis of the deposited data

How the results depend on the processing

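The 5 risers were called under all 18 alternatives, with limma adjusted p of at most 0.0324. Plk3 alone among the 10 genes changed sign (to -0.0239 without cKO replicate 1 and to -0.0257 without control replicate 2, in a range of -0.0257 to 0.134). The log2 difference of Rprm was 1.05 with a pseudocount of 0.1 and 0.12 with 5. Rows called higher and lower numbered 140 and 207 with no filter, a setting that tested 32491 rows, and 179 and 241 with the replicate block. Lower rows numbered 380 after quantile normalization, 419 after median-ratio scaling, 396 when mitochondrial and globin rows were left out of the scaling, and 371 for eBayes without a trend. The cause of these shifts was not tested. Leaving out single libraries gave 153 to 339 higher and 228 to 597 lower rows, 22 to 36 lower G2/M genes, 0 to 1 higher and 0 to 1 lower immediate early genes and 1 to 4 lower paralogs. With no filter, lower G2/M genes numbered 17, lower immediate early genes 0 and lower paralogs 1. Lower immediate early genes were also 0 under the 3 scalings and the block, and 1 was higher after quantile normalization. Lower paralogs numbered 2, 1 and 1 under the 3 scalings in the order above, 2 without a trend and 0 with the block. The sign of each of the 9 ratios held under every alternative run, and Trp53 passed without control replicate 4 (limma adjusted p = 0.0491). A minimum mean of 5 TPM left out Plk3 and Rprm.

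Replicate numbers are shared between the groups, but same-numbered libraries did not deviate together: the 4 correlations ran from -0.0891 to 0.0674, and 4 of 8 libraries correlated best with their own number. With the block, the calls over all rows fell to 179 higher and 241 lower, the 5 risers kept their calls, none of the other 4 tested genes was called, Rprm was not tested, and Mdm2 was at a limma adjusted p of 0.059. The depth of each library is not given by TPM, which limits Rprm and Plk3 most.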

Other observations

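Within cKO, replicate 4 held the most Rps19bp1 (19.2 TPM against 11.8 to 15.2 TPM in the others) and the least Ccng1 (260.05 TPM), Trp53inp1 (33.4 TPM), Btg2 (35.4 TPM) and Cdkn1a (137 TPM). The same library was second highest for Phlda3 (102 TPM) and second lowest for Psrc1 (54.4 TPM). The least Rps19bp1 was in cKO replicate 2, which was not the highest for any of these genes. Within cKO, replicate 2 also held the least Phlda3 (84.8 TPM) and the least Psrc1 (53.8 TPM). With 4 libraries this pattern was not tested.

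The rows most like the 5 risers over the 8 libraries, by Pearson correlation with their mean standardized profile, were Cox6b2 (r = 0.996), a testis isoform of a cytochrome oxidase subunit, Gria3 (r = 0.995), a glutamate receptor subunit, and Mme (r = 0.993), a membrane peptidase. Their log2 changes were 1.80, 1.41 and 0.43. The likeness includes the difference between the groups, which all 3 share.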
